A study of Mus musculus with 16 samples.

Results

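The open chromatin around 8 genes that encode macrophage lineage-determining transcription factors was examined: Spi1, Cebpa, Cebpb, Irf8, Runx1, Maf, Mitf and Klf4. Accessible regions were defined by merging the overlapping ATAC-seq peaks of 4 treatment lists, and a region was assigned to a gene when its midpoint lay within 100 kb of the gene's transcription start site (TSS) in the GRCm38 mouse genome. This gave 108 regions of 37648 in all, and no region belonged to more than 1 of the 8 genes. ATAC-seq reads out where the Tn5 transposase can insert adaptors, that is, where DNA is not wrapped tightly.

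The cells were macrophages grown from the bone marrow of C57BL/6J mice without a genetic change, cultured in L-cell conditioned medium, a source of the growth factor M-CSF, and kept without serum for a day before treatment. Per the methods the mice were females of 8 to 10 weeks. On day 8 of culture, Veh cells received DMSO and T0 cells received T0901317, a synthetic agonist of the liver X receptor (LXR), at 500 nM for 3 h. LPS and T0-LPS cells had the same first treatment, Veh and T0 respectively. Lipopolysaccharide at 10 ng/mL was then added to the same medium for 2 h, so the agonist stayed present in T0-LPS. Comparing a list with LPS to a list without it therefore also compared 2 lengths of culture. For T0-LPS against T0 it also compared 2 lengths of agonist exposure. Each group had 4 libraries of 50000 cells, which the authors pooled into 1 peak list.

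Macrophages acquire and hold their identity through a small set of transcription factors that bind enhancers together and open them. PU.1, encoded by Spi1, is the ETS factor that marks most macrophage enhancers, and it works beside C/EBPalpha and C/EBPbeta, the interferon regulatory factor IRF8 and the Runt factor RUNX1. MAF, MITF and KLF4 act in the differentiation and function of monocytes and macrophages, and LPS signalling through TLR4 lays NF-kB and AP-1 activity over this framework. LXR is a nuclear receptor for oxysterols that binds repeats of a hexamer as a dimer with RXR.

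The Veh list held 35551 peaks, the T0 list 29839, the LPS list 33181 and the T0-LPS list 31085. The authors had kept only peaks at regions marked as enhancers by H3K27ac or H3K4me2 in other macrophage data, so the counts refer to such regions. Each peak carried a score from the peak caller, which was turned into its percentile within its own list, from 0 for the weakest peak to 100 for the strongest. A region was absent from a list when that list held no peak in it, which can mean a weaker signal below the authors' threshold. Because there is 1 list per treatment, no value has a replicate check and no test between treatments could be made. Intervals on shares are Wilson 95% intervals and cover counting error only. The numbering of peaks within a list showed whether a called peak could have been removed between its neighbours, and 15 of the 62 absences had such room. Where one of the 108 regions described below had room, this is said beside it.

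Regions that carry the results are shown as sequence, each as the 200 bp at the region's midpoint on the plus strand of GRCm38, named by gene and distance of the midpoint from the TSS in bp. Capitals mark matches, on either strand, to the consensus letters of a factor: PU.1 (GAGGAAGT), C/EBP (TTGCNNAA), the MAF half-site (TGCTGAC), KLF (GGGNGTGG), AP-1 (TGANTCA), NF-kB, the nuclear receptor half-site (AGGTCA) and DR4, a direct repeat of that half-site with a spacer of 4 (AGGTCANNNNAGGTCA, up to 2 mismatches). A match is a description of the letters and not evidence of binding. The first 4 regions lacked a peak without LPS or ranked higher with it by the widest margin, and they lie at Spi1 and Cebpb.
Spi1 -10195, chr2:91072096-91072295: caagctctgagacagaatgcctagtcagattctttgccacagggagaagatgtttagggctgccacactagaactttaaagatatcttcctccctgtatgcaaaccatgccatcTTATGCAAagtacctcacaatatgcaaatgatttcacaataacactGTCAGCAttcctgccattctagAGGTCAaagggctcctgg
Cebpb +55270, chr2:167744086-167744285: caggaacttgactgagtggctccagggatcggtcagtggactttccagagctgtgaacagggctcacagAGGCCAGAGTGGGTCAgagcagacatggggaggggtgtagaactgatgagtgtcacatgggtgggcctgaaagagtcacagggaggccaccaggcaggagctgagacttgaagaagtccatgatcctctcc
Cebpb +53780, chr2:167742596-167742795: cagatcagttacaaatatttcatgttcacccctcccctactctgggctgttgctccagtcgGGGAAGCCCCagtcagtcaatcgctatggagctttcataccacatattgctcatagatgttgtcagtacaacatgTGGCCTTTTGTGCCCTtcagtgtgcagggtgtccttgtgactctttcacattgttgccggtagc
Cebpb +88775, chr2:167777591-167777790: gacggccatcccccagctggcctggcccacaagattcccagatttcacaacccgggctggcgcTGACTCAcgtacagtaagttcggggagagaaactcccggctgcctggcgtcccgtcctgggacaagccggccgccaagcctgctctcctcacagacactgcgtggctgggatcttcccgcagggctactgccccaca

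The next 4 regions ranked lower with LPS by the widest margin or had no peak in the LPS list, and lie at Cebpa, Maf and Irf8.
Cebpa +31825, chr7:35151019-35151218: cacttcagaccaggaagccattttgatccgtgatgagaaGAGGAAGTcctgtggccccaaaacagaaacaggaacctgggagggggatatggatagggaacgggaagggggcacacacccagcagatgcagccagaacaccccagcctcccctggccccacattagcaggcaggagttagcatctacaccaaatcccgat
Maf +93456, chr8:115614239-115614438: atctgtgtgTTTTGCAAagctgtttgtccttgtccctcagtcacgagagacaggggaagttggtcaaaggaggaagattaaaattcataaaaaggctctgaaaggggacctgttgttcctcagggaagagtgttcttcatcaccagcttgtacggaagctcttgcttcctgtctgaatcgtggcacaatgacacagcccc
Irf8 -51016, chr8:120685243-120685442: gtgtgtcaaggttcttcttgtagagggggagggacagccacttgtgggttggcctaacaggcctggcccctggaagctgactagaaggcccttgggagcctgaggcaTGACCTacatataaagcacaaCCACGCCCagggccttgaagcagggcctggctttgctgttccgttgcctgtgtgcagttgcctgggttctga
Irf8 +56535, chr8:120792794-120792993: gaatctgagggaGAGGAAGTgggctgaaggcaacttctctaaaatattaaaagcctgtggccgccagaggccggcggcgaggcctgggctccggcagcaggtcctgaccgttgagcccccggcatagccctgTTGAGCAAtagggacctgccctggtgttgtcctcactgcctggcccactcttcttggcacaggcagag

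The last 3 are the region at the annotated Spi1 start, a Mitf region that had no peak in the T0 list, and the strongest Klf4 region.
Spi1 +702, chr2:91082993-91083192: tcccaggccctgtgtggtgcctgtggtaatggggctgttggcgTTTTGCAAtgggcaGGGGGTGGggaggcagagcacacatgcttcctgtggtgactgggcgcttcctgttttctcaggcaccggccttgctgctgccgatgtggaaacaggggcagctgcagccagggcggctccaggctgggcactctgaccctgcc
Mitf -88752, chr6:97718201-97718400: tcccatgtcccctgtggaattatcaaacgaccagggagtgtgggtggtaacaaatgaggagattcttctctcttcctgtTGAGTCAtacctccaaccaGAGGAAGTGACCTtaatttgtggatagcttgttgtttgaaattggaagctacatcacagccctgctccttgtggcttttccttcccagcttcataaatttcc
Klf4 -91127, chr4:55623494-55623693: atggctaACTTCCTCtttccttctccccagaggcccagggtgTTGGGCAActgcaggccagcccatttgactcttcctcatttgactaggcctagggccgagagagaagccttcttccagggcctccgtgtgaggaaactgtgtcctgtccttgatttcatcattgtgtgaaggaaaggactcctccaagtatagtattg

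In these sequences the capitals of Spi1 -10195 mark, from the left, C/EBP, the MAF half-site and the nuclear receptor half-site. That of Maf +93456 marks C/EBP, that of Cebpa +31825 marks PU.1, that of Cebpb +55270 marks DR4, and that of Cebpb +88775 marks AP-1. Cebpb +53780 holds NF-kB and then DR4, Irf8 -51016 the nuclear receptor half-site and then KLF, and Spi1 +702 C/EBP and then KLF. Irf8 +56535 and Klf4 -91127 each hold PU.1 and then C/EBP. In Mitf -88752 the first run is AP-1 and the second joins PU.1 to a nuclear receptor half-site that starts on its last base.

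Open regions were most numerous at Cebpb, with 22, and at Irf8, with 19, followed by Cebpa with 17, Mitf with 15, Spi1 with 12, Runx1 with 11, Maf with 7 and Klf4 with 5. Among 21911 protein-coding genes the median was 5 regions, and the Cebpb count stood at percentile 99.0 of all genes, Irf8 at 97.3, Cebpa at 95.2, Mitf at 92.0, Spi1 at 84.2, Runx1 at 80.6, Maf at 60.8 and Klf4 at 48.1. The 8 genes had a median of 13.5 regions. A window holds whatever lies near a gene, and only 66 of the 108 regions had their own gene as the nearest protein-coding TSS. At Cebpb this was 1 of 22, since the Tmem189 start was nearest to 15 regions downstream and those of Ube2v1 or Gm20431 to the 6 upstream. The Tmem189 start lies close to that of Cebpb, so for the 15 regions the distances to the 2 starts differ little. Cebpb +53780, for example, is 52873 bp from the Tmem189 start. At Maf, Mitf, Runx1 and Klf4 every region had its own gene nearest. At the edge of the window, Cebpb -99677 (chr2:167588797-167589680) lay just inside, at percentile 86.2 in Veh, and a Spi1 region at 100950 bp (chr2:91183204-91183477) just outside, at 5.49 in Veh and with no peak in T0.

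Of the 108 regions, 59 had their midpoint in an intron, 37 between genes, 6 in an untranslated region, 3 in a coding exon and 3 in a non-coding exon. Upstream of the TSS lay 50 and downstream 58. Within 1 kb of any protein-coding TSS lay 14.8% of them, against 29.7% of all regions. Their scores lay a little below those of all regions. The median percentile was 47.6 (Veh), 43.8 (T0), 46.3 (LPS) and 44.0 (T0-LPS), against 50.4 to 51.0 over all regions. The share above percentile 90 was 7.37% (Veh), 2.33% (T0), 4.17% (LPS) and 6.45% (T0-LPS), against 10.1 to 10.3% of all regions.

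All 4 lists held a peak in 76 of the 108 regions, 70.4% (interval 61.2 to 78.2%), against 70.2% of all regions. Maf kept all 7 of its regions, Klf4 4 of 5, Runx1 9 of 11, Cebpb 17 of 22, Spi1 9 of 12, Cebpa 11 of 17, Mitf 9 of 15 and Irf8 10 of 19. The map of the 8 loci by treatment shows each region and the 62 places where a list held no peak.

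**Figure D1:**
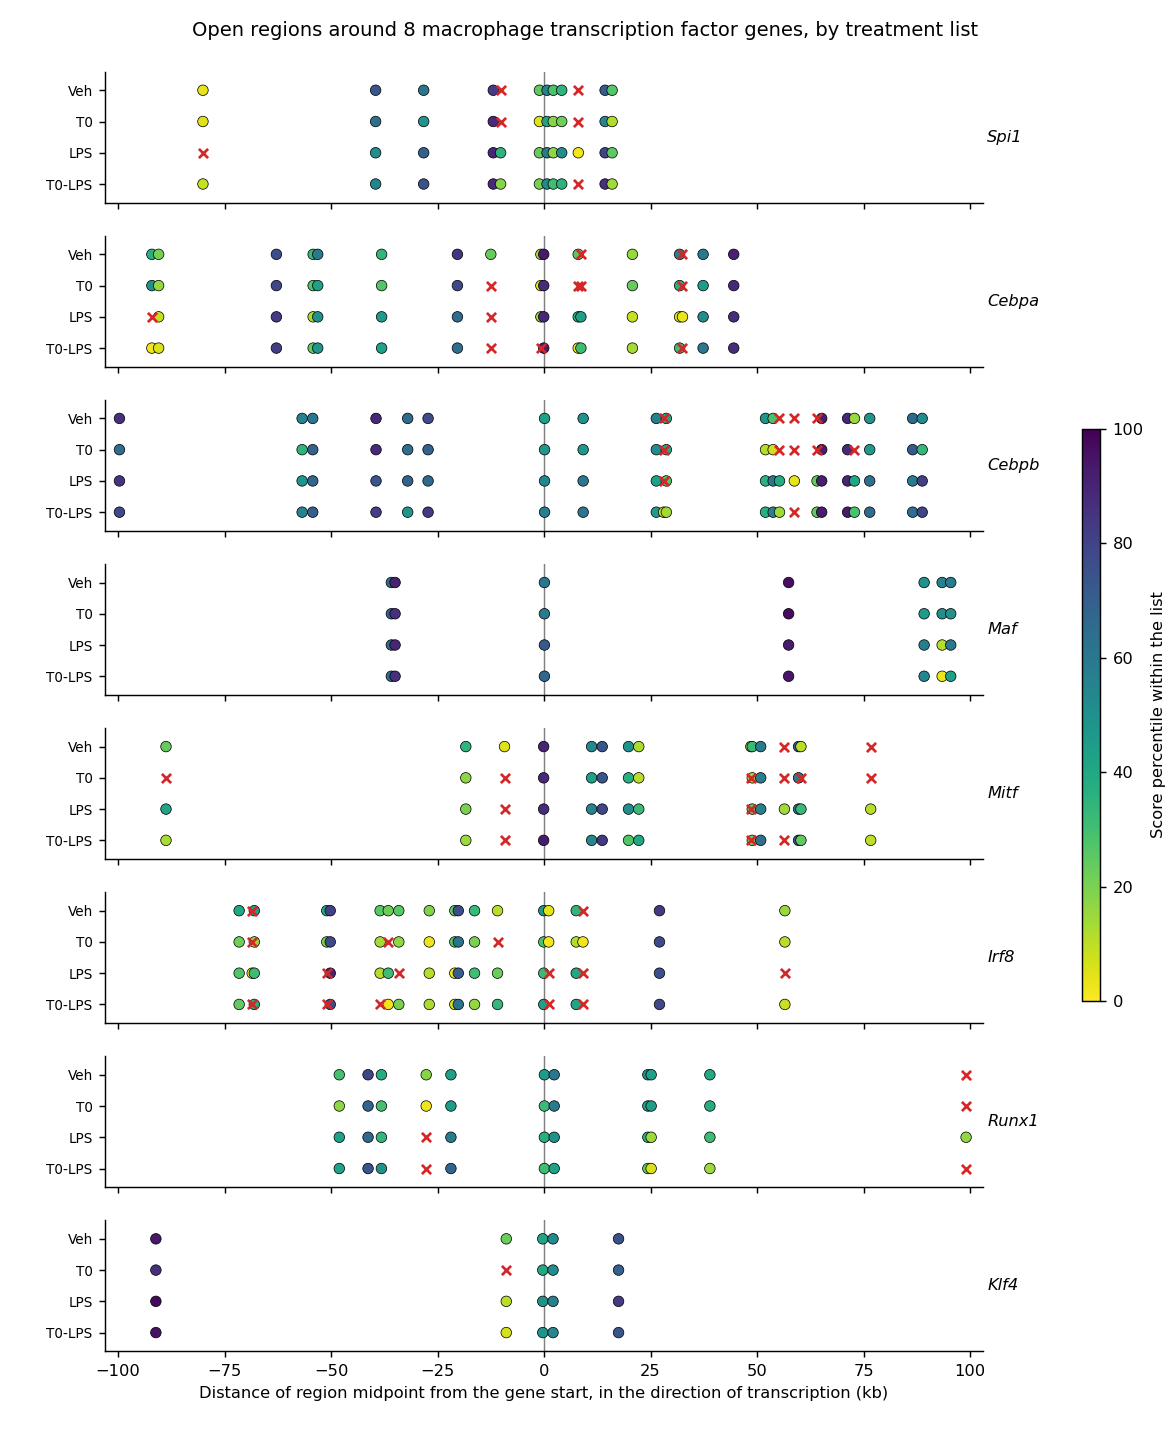
Each row of points is 1 peak list, each column of points 1 region, placed by the distance of its midpoint from the gene's annotated start in kb, with the direction of transcription to the right. Colour gives the score percentile within the list and a red cross marks a list without a peak. All 7 Maf regions are filled in every list, while Irf8 and Mitf have the most crosses.

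The region nearest the start of each gene held a peak in all 4 lists, with no loss at any of the 8 genes. All 8 stood above percentile 30 in Veh. Of all regions from percentile 30 up in Veh, only 2.33% had no peak in T0 and 2.18% none in LPS. The lack of losses at 8 regions lies near those shares. Cebpa -80 and Mitf -96 were the strongest. Cebpa -80 (chr7:35118813-35119614) stood at percentile 93.0 (Veh), 87.9 (T0), 88.7 (LPS) and 92.7 (T0-LPS). Mitf -96 (chr6:97806752-97807161) stood at 90.1, 88.8, 87.7 and 92.8 in the same order. Over the 4 lists the 2 regions stayed between 87.7 and 93.0.

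Among the promoters of intermediate strength, Cebpb +116 (chr2:167688676-167689387, in the single coding exon) stood at 42.6 (Veh), 46.6 (T0), 53.2 (LPS) and 57.7 (T0-LPS). Maf +85 (chr8:115707114-115708305) stood at 60.8, 59.2, 72.1 and 66.9. Both were higher in the 2 lists with LPS than in the 2 without. Klf4 -306 (chr4:55532406-55533139) showed the same order, at 41.1, 40.1, 49.2 and 48.3.

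Irf8 and Runx1 were lower after either treatment. Irf8 -72 (chr8:120736131-120736441) stood at 46.1 (Veh), 28.4 (T0), 32.1 (LPS) and 43.3 (T0-LPS). Runx1 +76 (chr16:92825860-92826286), at the distal of its promoters, stood at 45.6, 32.0, 37.1 and 30.6. For Irf8 the T0-LPS value lay near that of Veh, and for Runx1 it was the lowest of the 4. Of all regions shared by Veh and T0, 77.1% were lower in T0. Ranked only among regions held by all 4 lists, Irf8 -72 changed by -7.34 points with T0 and -9.86 with LPS. Runx1 +76 changed by -3.10 and -3.91. The quartiles of all regions were -5.25 to 5.5 with T0 and -7.09 to 6.82 with LPS, which hold the Runx1 values but not those of Irf8.

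At Spi1 the annotated 5′ end and the protein-coding transcript differ, and this decides which region is called its promoter. The gene's annotated start (91082390 on chromosome 2) lies 13706 bp before the start of its only basic transcript (91096096). Spi1 +702 (chr2:91082862-91083322) therefore lies at -13004 from the transcript. This is about where the upstream regulatory element of Spi1 is known to lie, an enhancer that PU.1 itself binds. A further region, Spi1 -1087 (chr2:91081185-91081421), lies close by at -14793, and which of them holds the element was not tested. The PU.1 letters were in the 200 bp of neither. Spi1 -1087 stood at percentile 24.4 (Veh), 4.89 (T0), 22.8 (LPS) and 20.2 (T0-LPS). Spi1 +702 stood at 57.0 (Veh), 41.8 (T0), 58.7 (LPS) and 52.9 (T0-LPS). The region at the transcript's own start, Spi1 +14333 (chr2:91096486-91096960), is 627 bp inside the transcript, in an untranslated region, and stood at 71.2, 53.7, 79.4 and 86.0. Spi1 +702 and Spi1 +14333 were both lowest in T0, and Spi1 +14333 was highest in T0-LPS.

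The strongest Spi1 region in Veh, Spi1 -11918 (chr2:91070041-91070904), stood at 82.5 (Veh), 88.4 (T0), 89.3 (LPS) and 88.2 (T0-LPS), and the closest TSS is that of Slc39a13. Elsewhere the strongest were Maf +57410 (chr8:115650031-115650738, intergenic), at 96.8 (Veh), 97.1 (T0), 92.2 (LPS) and 94.6 (T0-LPS), and Klf4 -91127 (chr4:55623383-55623803), at 93.9, 86.5, 97.3 and 95.4. These were named after their values were seen. Cebpb had a pair of strong regions downstream. Cebpb +65176 (chr2:167753832-167754350) stayed between 91.5 and 92.4 in the 4 lists, and Cebpb +71265 (chr2:167759943-167760418) between 88.4 and 92.8.

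T0 was compared with Veh to ask whether the LXR agonist changes accessibility at these loci. Of the 95 regions with a Veh peak, 10 had none in T0, 10.5% (interval 5.82 to 18.3%), against 18.1% of all regions. They were 4 at Mitf, 2 each at Cebpa and Irf8, and 1 each at Cebpb and Klf4, and none at Spi1, Maf or Runx1. All 10 were weak in Veh, with scores of 98 to 200 and percentiles of 4.80 to 25.2. Below percentile 30 of the Veh list, 10 of 27 regions were absent from T0 (37.0%, against 55.6% of all such regions), and from percentile 30 up, 0 of 68 (against 2.33%), a count that allows a share of up to 4.41%. Room for a removed peak existed at 2 of the 10.

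The T0 list gained 1 of its 86 regions over Veh, 1.16%, against 0.729% of all regions. It was Irf8 +9129 (chr8:120745397-120745578, intron of Irf8), at percentile 2.00 in T0 alone, and the other lists had room for removed peaks there, 2 each in Veh and LPS and 1 in T0-LPS. With the lists cut to equal length the balance turned, with 7 regions gained (8.14%, against 5.76% of all regions) and 5 absent (5.95%, against 7.7%). Of the 10 regions absent from T0, 7 were present in both LPS and T0-LPS, and the other 3 in Veh alone. Across all 108 regions, the pattern of Veh, LPS and T0-LPS without T0 made up 6.48%, against 4.98% of all regions, and Veh alone 2.78%, against 7.73%.

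The percentile of a shared region fell by more than 10 points with T0 in 33 of 85 regions, 38.8% (interval 29.2 to 49.5%), against 34.1% of all regions. It rose by more than 10 in 1 region, 1.18%, against 2.01%. The median change was -6.04 points here and -5.58 over all regions. Ranked only among the regions held by all 4 lists, which sets the change over all regions near 0 by construction, it was 0.256 points here and 0.130 over all regions.

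By gene the median change with T0 was -13.2 points at Spi1, -12.2 at Irf8, -9.09 at Mitf, -6.72 at Runx1, -5.54 at Cebpa, -4.28 at Maf, -3.58 at Klf4 and -1.97 at Cebpb. Among regions held by all 4 lists, Spi1 and Irf8 were still lowest, at -4.56 and -4.87 points, and Runx1, Maf, Klf4 and Cebpb lay above 0. Of the regions shared by Veh and T0, 8 of 10 were lower in T0 at Spi1 and 14 of 15 at Irf8. Over all shared regions the share was 77.1%. No interval was computed for these counts, and with so few regions neither was shown to differ from that share. Without replicates it is not known how far such medians vary between cultures.

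The falls with T0 that were greatest among regions of all lists were at Cebpb +51991 and Irf8 -68019. Cebpb +51991 (chr2:167740664-167741149, intergenic) stood at 47.6 (Veh), 11.5 (T0), 36.0 (LPS) and 36.4 (T0-LPS). Irf8 -68019 (chr8:120668155-120668523), at the start of the cytochrome oxidase gene Cox4i1, stood at 44.2, 16.3, 30.9 and 36.6. In both, T0 alone was the lowest list. The rises were smaller, and neither passed 10 points. Cebpb -54305 (chr2:167634431-167634790) stood at 60.8 (Veh), 69.5 (T0), 67.5 (LPS) and 70.5 (T0-LPS), and Cebpa +20743 (chr7:35139860-35140212) at 15.8, 23.8, 8.24 and 13.5. Ranked only among the regions held by all 4 lists, these rises were 17.8 and 14.3 points, both past 10, and the falls were -23.9 points at Cebpb +51991 and -16.0 at Irf8 -68019.

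LPS was compared with Veh to ask how the same loci respond to TLR4 stimulation. The LPS list held 11 regions that Veh lacked, of 96, 11.5% (interval 6.52 to 19.4%), against 6.14% of all regions. Gains were spread over 6 genes, with 3 at Cebpb, 2 each at Spi1, Cebpa and Mitf, and 1 each at Irf8 and Runx1. Room for a removed peak in Veh existed at 2 of the 11. The T0 list held none of these 11. Of the 2002 regions gained with LPS in all, T0 also held few, 33 without T0-LPS and 51 with it. The T0-LPS list held 5 of the 11, 45.5%, against 53.0% of all regions gained with LPS. Below percentile 30 of the LPS list 8 of 27 regions were gains (29.6%, against 16.7%), and from percentile 30 up 3 of 69 (4.35%, against 1.74%). With a window of 50 kb the share fell to 6.45%, 4 of 62 regions.

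The stronger gains included Cebpb +55270 and Spi1 -10195, both of which T0-LPS held at a lower percentile. Cebpb +55270 (chr2:167744024-167744347, intergenic) had no peak in Veh or T0, a score of 249 at percentile 38.9 in LPS and 123 at 14.3 in T0-LPS. Spi1 -10195 (chr2:91072080-91072310, intergenic) had none in Veh or T0, 228 at 35.2 in LPS and 136 at 18.0 in T0-LPS. None of their absences had room for a removed peak. The gains at Cebpb sat together, with Cebpb +55270, +58758 and +64089 side by side, next to Cebpb +53780, the region with the widest rise.

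The rises with LPS were greatest at Cebpb, whose product is induced in macrophages by inflammatory signals. Cebpb +53780 (chr2:167742541-167742849, intergenic) stood at percentile 28.9 (Veh), 7.04 (T0), 60.3 (LPS) and 56.0 (T0-LPS). Cebpb +88775 (chr2:167777274-167778106) stood at 52.3, 33.4, 81.5 and 79.3. In both, each list with LPS was above each list without, and T0 alone was the lowest. Among the regions held by all 4 lists the LPS rises of the pair were 40.6 and 40.2 points.

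LPS left 10 of the 95 Veh regions without a peak, 10.5% (interval 5.82 to 18.3%), against 13.0% of all regions. Of these 4 lay at Irf8, 2 each at Cebpa and Mitf, 1 each at Spi1 and Runx1, and none at Cebpb, Maf or Klf4. Those with the most signal elsewhere were Irf8 -51016 and Cebpa -92068. Irf8 -51016 (chr8:120685206-120685478, intron of Gm20388, a transcript that spans the locus) stood at 38.9 in Veh and 19.8 in T0, with no peak in LPS or T0-LPS. Cebpa -92068 (chr7:35026977-35027473, intron of Pepd), whose nearest TSS is that of Cebpg, stood at 37.1 in Veh, 49.5 in T0 and 1.59 in T0-LPS, with no peak in LPS. Neither absence had room. That region was the 1 region whose percentile rose by more than 10 points with T0.

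Shared regions moved both ways with LPS. The percentile rose by more than 10 points in 16 of 85, 18.8% (interval 11.9 to 28.4%), against 11.4% of all regions, and fell by more than 10 in 24, 28.2%, against 25.2%. The median change was -1.86 points, against -2.01. By gene the median was 4.82 points at Klf4, 2.25 at Mitf, 1.64 at Spi1, 0.0163 at Cebpb, -1.23 at Maf, -7.42 at Irf8, -7.60 at Cebpa and -8.42 at Runx1. Irf8, Cebpa and Runx1 also had the lowest medians among regions held by all 4 lists, at -6.03, -4.77 and -3.91.

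A pair of regions fell far more than the rest with LPS. Cebpa +31825 (chr7:35150824-35151412, intergenic) stood at percentile 56.5 (Veh), 37.1 (T0), 4.80 (LPS) and 31.2 (T0-LPS), a change of -51.7 points with LPS. Maf +93456 (chr8:115614140-115614537, intergenic, beyond the 3′ end of Maf) stood at 55.8, 51.0, 10.6 and 2.92, a change of -45.2 points. The remaining Maf regions changed by between -4.63 and 11.3 points with LPS. For Cebpa +31825 the T0-LPS list was above the LPS list, and for Maf +93456 it was below.

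**Figure D2:**
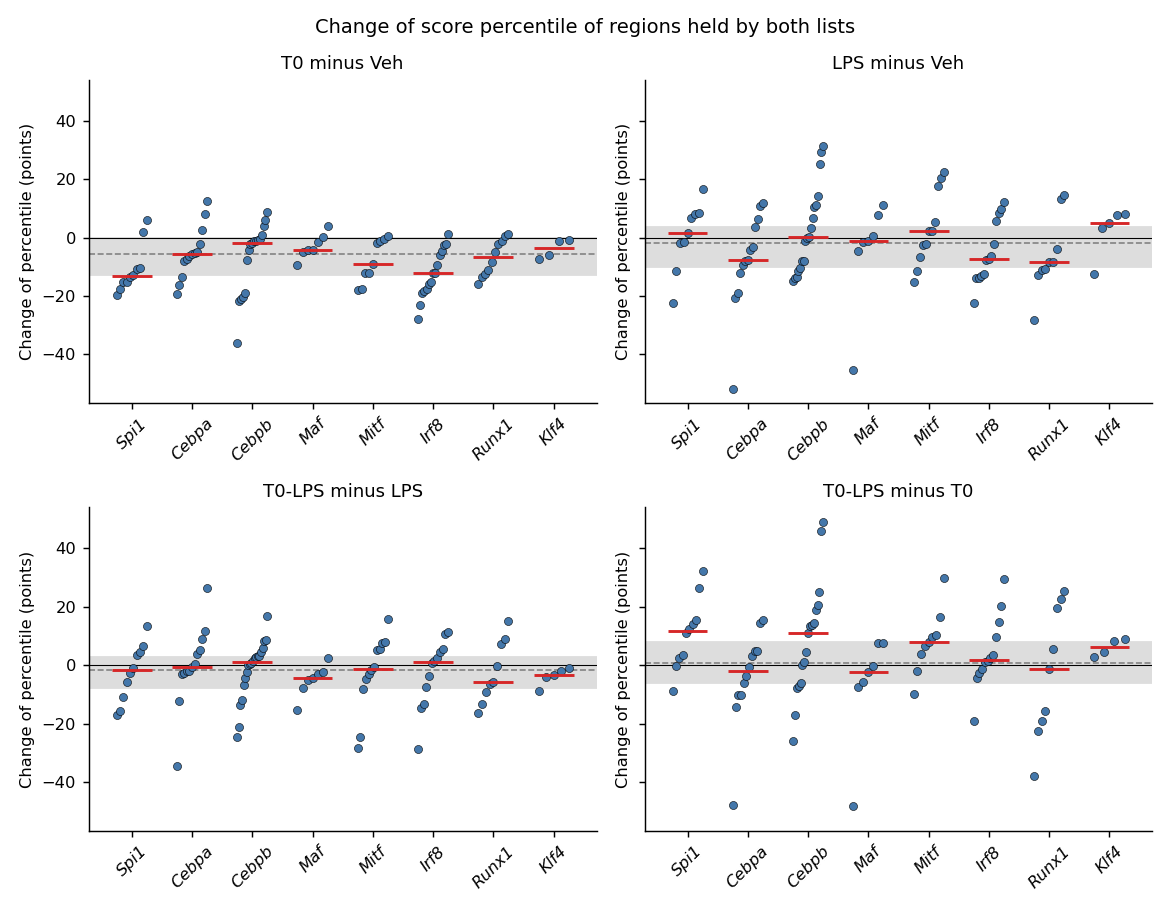
Change of score percentile, in points, for regions held by both lists of a comparison, by gene. Blue points are regions, red lines their medians, the grey band spans the quartiles of all regions and the dashed line their median. With T0 the Spi1 median, -13.2, and the Irf8 median, -12.2, lie at the lower edge of the band, and with LPS single Cebpb regions lie highest and single Cebpa and Maf regions lowest.

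T0-LPS was compared with LPS to ask what the agonist changes in stimulated cells. Of the 96 regions of the LPS list 8 had no peak in T0-LPS, 8.33% (interval 4.28 to 15.6%), against 9.97% of all regions. They lay at 6 genes, with scores of 72 to 140 in LPS, and 6 of them were held by LPS alone. Of the 3254 LPS regions absent from T0-LPS in all, 907 were held by LPS alone. LPS alone made up 5.56% of the 108 regions, against 2.41% of all regions. The T0-LPS list gained 5 of its 93 regions, 5.38% (interval 2.32 to 12.0%), against 3.37% of all regions. Of the gains, 4 were regions that Veh and T0 held as well and only LPS lacked: Spi1 -80078, Cebpa -92068, Irf8 -34098 and Irf8 +56535. That pattern made up 3.70% of the 108 regions, against 0.858% of all regions, and their percentiles in T0-LPS were 8.77, 1.59, 20.0 and 8.03. Irf8 +56535 had room for 2 removed peaks in the LPS list, and the others had none.

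The percentile rose by more than 10 points from LPS to T0-LPS in 8 of 88 shared regions, 9.09%, against 7.36% of all regions, and fell by more than 10 in 17, 19.3%, against 19.3%. The median change was -1.33 points, against -1.76. The greatest rises among regions of all lists were at Cebpa +31825, given above, and Cebpb -27224 (chr2:167661448-167661934, intron of Tmem189). The latter lies 195 bp from the TSS of Gm20431 and stood at 77.0 (Veh), 69.4 (T0), 66.4 (LPS) and 83.2 (T0-LPS). The greatest falls were at Mitf +19832 (chr6:97826699-97827069, intron of Mitf), at 49.2, 37.1, 51.5 and 27.1, and Cebpb -32014 (chr2:167656583-167657219), at 65.3, 64.4, 68.6 and 47.5. In both, T0-LPS was the lowest list.

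Of the 7 regions that the T0 list alone lacked, 6 stood higher in LPS than in Veh, and T0-LPS lay below LPS at 6. Of the 1876 regions with that pattern in all, 59.0% stood higher in LPS and 64.3% had T0-LPS below LPS, and with 7 regions the interval of each share, 48.7 to 97.4%, holds these values. Of the 7, 6 are described here. Klf4 -8868 (chr4:55541180-55541488, intergenic) was the exception to the first count, at 22.9 in Veh, 10.3 in LPS and 6.36 in T0-LPS, with room for 1 removed peak in T0. Mitf -88752 (chr6:97718148-97718453, intergenic) stood at 23.6 in Veh, 41.2 in LPS and 13.0 in T0-LPS, and Irf8 -36578 (chr8:120699639-120699921) at 22.4, 30.7 and 1.99. In these 2 regions the T0 list had no room for a removed peak, and T0-LPS was the weakest of the lists that held one.

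A further 3 such regions were held more strongly in T0-LPS than in Veh. Cebpb +72875 (chr2:167761653-167761928, intergenic) stood at 15.4 in Veh, 40.5 in LPS and 28.7 in T0-LPS. Mitf +60307 (chr6:97867211-97867508, intron of Mitf) stood at 10.2, 32.6 and 24.4, and here the T0 list had room for 2 removed peaks. Irf8 -10921 (chr8:120725271-120725603) stood at 10.8, 22.8 and 33.5, the only one of the 7 that was highest in T0-LPS. The grid of regions without a peak in at least 1 list shows these beside the rest.

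**Figure D3:**
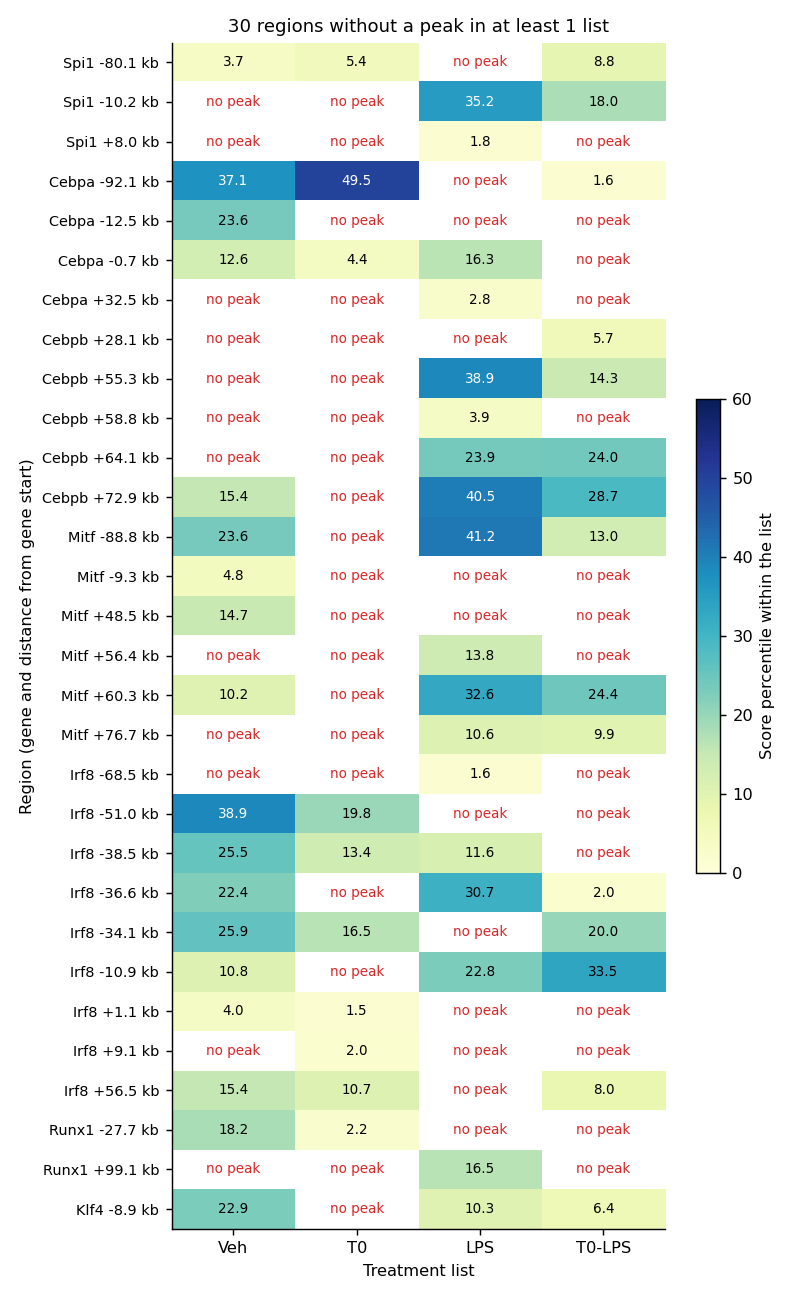
Score percentile of 30 of the 32 regions that lacked a peak in at least 1 list, 1 row a region and 1 column a list, with the value printed in each cell and darker colour for a higher percentile. Of the regions shown that LPS gained over Veh, those that T0-LPS also held are filled in the right-hand columns, and none shown reaches percentile 50 in any list.

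T0-LPS was also compared with T0, which shows LPS in agonist-treated cells, with the agonist also present for longer in T0-LPS. Of the 86 T0 regions 6 had no peak in T0-LPS, 6.98% (interval 3.24 to 14.4%), against 7.7% of all regions, and the T0-LPS list gained 13 of 93, 14.0% (interval 8.35 to 22.5%), against 11.7%. The percentile rose by more than 10 points in 26 of 80 shared regions, 32.5% (interval 23.2 to 43.4%), against 20.5% of all regions, and fell by more than 10 in 13, 16.2%, against 16.8%. The median change was 3.74 points, against 0.597. By gene it was 11.8 at Spi1, 11.1 at Cebpb, 7.89 at Mitf and 6.38 at Klf4, and between -2.49 and 1.88 at Irf8, Runx1, Cebpa and Maf. T0 is a list of both this comparison and that with Veh, so these values are not independent of the falls with T0.

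**Figure D4:**
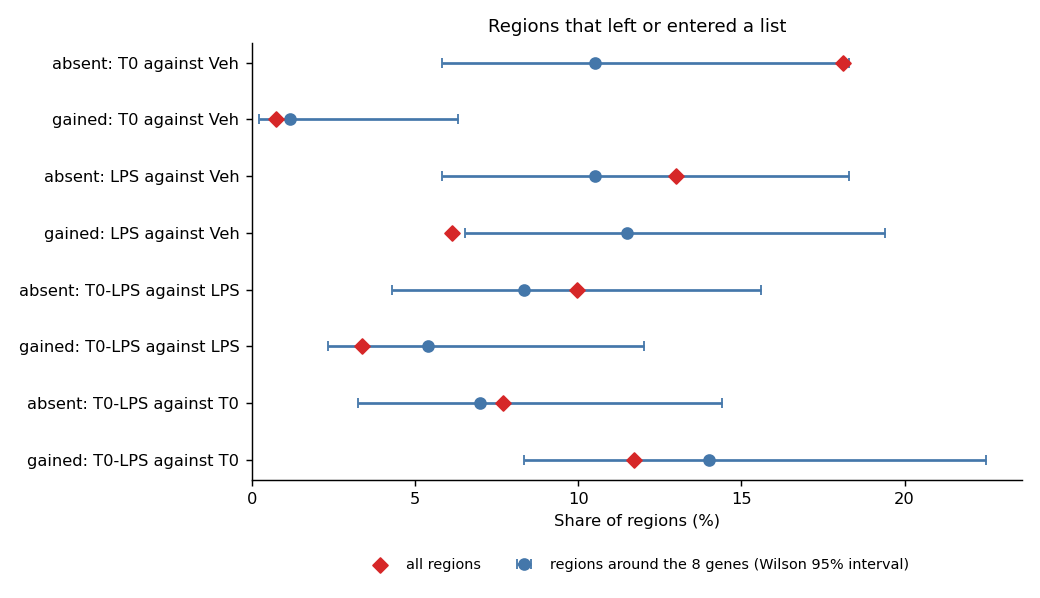
Share of regions, in percent, that were absent from the first-named list of a comparison but present in the second ("absent"), or the reverse ("gained"). Blue points are the regions around the 8 genes with Wilson 95% intervals and red diamonds are all regions. The member share lies above that of all regions for gains with LPS, 11.5% against 6.14%, but was 6.45% with a window of 50 kb. For absences with T0 it lies below, 10.5% against 18.1%, with an interval of 5.82 to 18.3% that holds the share of all regions.

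Consensus matches were counted in the 200 bp at the midpoint of each region, to describe what the sequences share. The C/EBP letters were found in 20 of the 108 regions, 18.5% (interval 12.3 to 26.9%), against 10.7% of all regions. The MAF half-site was found in 11.1% (interval 6.47 to 18.4%), against 5.26%, and MITF (TCANGTGA) in 6.48%, against 3.10%. For these 3 motifs the share of all regions lay below the interval, and this held only for the 200 bp window with all regions counted. Without the regions within 1 kb of a protein-coding TSS, which are fewer here than over all regions, the shares were 19.6% against 13.2% for C/EBP, 10.9% against 6.31% for the MAF half-site and 6.52% against 3.40% for MITF. Over whole regions they were 24.1% against 19.6%, 14.8% against 9.64% and 7.41% against 6.12%. In both cases the share of all regions lay inside the interval for each of the 3 motifs. KLF was found in 11.1%, against 10.2%, RUNX (TGTGGTT) in 5.56%, against 6.95%, and PU.1 in 7.41%, against 8.55%.

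The composite of PU.1 and IRF (EICE, GGAANNGAAA) was found in 1.85%, against 4.61%, and the interferon-stimulated element (ISRE, GAAANNGAAA) in 1.85%, against 3.79%. AP-1 was found in 15.7%, against 16.6%, NF-kB in 6.48%, against 4.31%, the nuclear receptor half-site in 16.7%, against 11.9%, and DR4 in 3.70%, against 1.94%. For these 6 motifs, and for KLF, RUNX and PU.1, the share of all regions lay inside the interval of the 108. Letters overlap between motifs, since a DR4 without mismatches holds the nuclear receptor half-site, EICE and ISRE share their last bases, and a MAF half-site can run into AP-1. The median GC content was 53.8%, against 52.0% of all regions.

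By gene, C/EBP letters were in 5 of 15 regions at Mitf, 4 of 12 at Spi1, 3 of 22 at Cebpb, 3 of 19 at Irf8, 2 of 17 at Cebpa, 2 of 5 at Klf4, 1 of 7 at Maf and 0 of 11 at Runx1. The PU.1 letters were in 2 of 17 regions at Cebpa, 2 of 15 at Mitf, 2 of 19 at Irf8, 1 of 11 at Runx1 and 1 of 5 at Klf4. None of the 12 Spi1, 22 Cebpb or 7 Maf regions held them. With a share of 8.55% over all regions, few matches would fall in sets this small. Among the 11 regions gained with LPS, 4 held C/EBP, 36.4%, against 16.2% of all regions gained with LPS, and 1 held NF-kB, 9.09%, against 18.1%. Those with C/EBP included Spi1 -10195, Mitf +56426 and Mitf +76682, the last with room for 3 removed peaks in Veh and 2 in T0. Of the 10 regions absent from T0, 4 held the nuclear receptor half-site, 40.0%, against 11.8% of all regions absent from T0, and none held DR4. They were Cebpa -12501, Cebpb +72875, Mitf -88752 and Mitf -9282. With counts this small, 1 region moves a share by about 10 points.

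**Figure D5:**
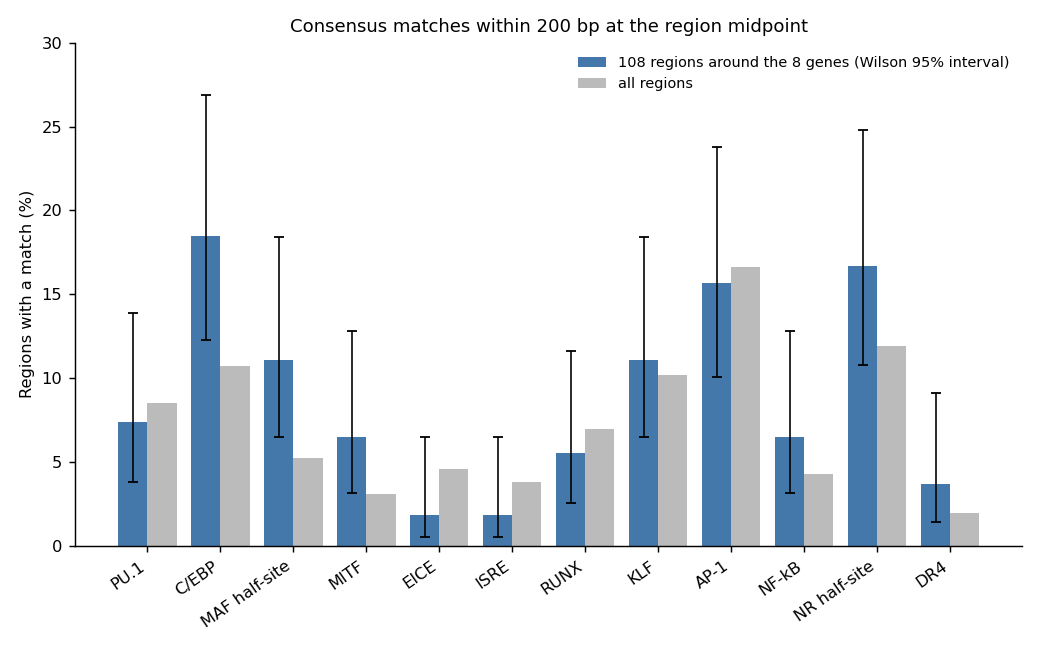
Share of regions, in percent, with at least 1 match to each consensus in the 200 bp at the midpoint. Blue bars are the 108 regions around the 8 genes with Wilson 95% intervals, and grey bars are all regions. C/EBP, at 18.5% against 10.7%, the MAF half-site, at 11.1% against 5.26%, and MITF, at 6.48% against 3.10%, have intervals that lie above the grey bars, which was not so over whole regions or without regions near a TSS.

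Other gene lists gave the setting for these counts. Macrophage marker genes, such as Csf1r, Adgre1 and Cd68, had a region within 1 kb of the TSS at 10 of 10 genes and a median of 12.5 regions within 100 kb. The other macrophage transcription factors, a list of 22 from Tfec with 5 regions to Klf6 with 22, had a median of 10.0 and a region at the start of 19. Transcription factors of other lineages, such as Gata1 with 4 regions, had a median of 4.0 and a region at the start of 5 of 20. They ran from Myod1 and Sox2, with none in the window, to Klf1 with 20. Marker genes of other cell types, from Ly6g with 1 region to Elane with 20, had a median of 8.5 and a region at the start of 6 of 16. Absence from T0 was 18.6% for the other macrophage transcription factors, 15.5% for those of other lineages, 14.3% for macrophage markers and 19.4% for markers of other cell types, and gains with LPS were 9.18%, 6.42%, 5.08% and 8.40%. These lists share no test with the 8 genes, and some of their windows overlap, as those of Cebpg and Cebpa do.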

How the data were processed

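ATAC-seq reads were, per the authors' methods and processing notes, trimmed with cutadapt, aligned to mm10 with Bowtie2, cleared of PCR duplicates with SAMtools and used for peak calling with MACS2 on the 4 libraries of a group together, and peaks were kept where they met enhancer marks of other macrophage data. The deposited lists give position, number and score of each peak. The score was used as a rank within a list, since it grows with depth, which is not known per library. The exception was the alternative with a minimum score, which cut every list at the same score. Scores printed beside a percentile describe a peak in its own list and are not comparable between lists. Peaks of the 4 lists that overlapped by at least 1 bp were merged into regions (Python 3.11.15, pandas 2.3.3), with the highest score of a list in a region ranked among all its peaks. Genes, TSSs and exons are from the GENCODE M21 basic annotation of GRCm38, and sequence was read with pysam 0.24.0. Merging and motif search were tested on simulated data.

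The 8 genes, the other gene lists and the motifs were chosen with earlier results of these data known. Regions described in full were the one nearest each TSS, every region absent from a list but at percentile 30 or more in another, and the 2 with the largest rise and fall in each of the comparisons T0 against Veh, LPS against Veh and T0-LPS against LPS, of regions in all lists. Regions of 1 locus that met this rule are not reported here. A change of percentile was counted past 10 points, and a count of 0 allows up to 3. The alternatives were windows of 50 and 200 kb, the TSS of any transcript, the nearest gene only, a minimum score of 200, lists of equal length, a reciprocal overlap of 50%, and other ranks and motif windows.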

Additional observations from a re-analysis of the deposited data

How the results depend on the processing

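A window of 50 kb gave 70 regions and a share gained with LPS of 6.45%, against 6.14% of all regions. A window of 200 kb gave 166 regions. The nearest-gene rule gave 66, with 1.82% gained in T0-LPS over LPS, against 3.37% of all regions. With a minimum score of 200, 54.8% of regions were in all lists, absences rose to 26.7% for T0 against Veh, 18.7% for LPS against Veh, 18.8% for T0-LPS against LPS and 16.4% for T0-LPS against T0, and gains were 0% for T0 against Veh and 1.75% for T0-LPS against LPS. Gains of T0 over Veh were 8.14% with lists of equal length (5.76% of all regions), where absences were 5.95% (7.7%). With a reciprocal overlap of 50% the gains were 6.67%. For the minimum score and the reciprocal overlap the share over all regions was not computed. Whether all regions shift alike under these 2 rules is therefore not known. The cause of these shifts was not tested. Among regions of all 4 lists the median change of percentile turned from below 0 to 0.256 points for T0 against Veh and to 1.64 for T0-LPS against LPS, a ranking that sets the change over all regions near 0 by construction. By peak width it was -1.71 for T0 against Veh, with -2.4 over all regions. For LPS against Veh it turned from -1.86 to 1.28, with -1.08 over all regions. Over whole regions, longer than the 200 bp, KLF was found in 23.1% (20.7% of all regions), AP-1 in 24.1% (23.9%) and the nuclear receptor half-site in 29.6% (23.6%), and C/EBP, the MAF half-site and MITF no longer had the share of all regions below their intervals. The TSS of any transcript moved no share by more than its interval. Leaving out regions within 1 kb of a TSS for the motifs was chosen after seeing the data. No paired analysis was possible because each deposited list pools the 4 libraries of its group, and no library could be left out for the same reason.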

Other observations

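Runx1 and Mitf have further annotated starts beyond the window used, and the start of the Spi1 transcript lies 13706 bp inside it. Within 100 kb of these starts alone lay 14 regions. At Runx1 there were 9, of which 6 held a peak in all lists. The region at its proximal promoter, Runx1 +128740 (chr16:92697209-92697609), lies at -81 from that start and stood at percentile 41.6 (Veh), 45.4 (T0), 47.7 (LPS) and 41.5 (T0-LPS). A second region there, Runx1 +129377 (chr16:92696627-92696918), 556 bp inside the transcript, stood at 31.0, 13.9, 27.4 and 20.4. The first spanned a narrower range than the distal Runx1 +76 and the second a wider one. The strongest of the 9 was Runx1 +205260 (chr16:92620691-92621088), at 85.9, 84.1, 88.8 and 85.7. Runx1 +112155 (chr16:92713864-92714124) stood at 32.0 in Veh and 11.1 in LPS, with no peak in either list with T0.

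Mitf has a start far inside the gene, the one used in melanocytes, and 2 regions lay near it. Mitf +188877 (chr6:97995728-97996130) stood at 66.0 (Veh), 50.9 (T0), 78.9 (LPS) and 62.2 (T0-LPS), lower in each list with T0 than in its counterpart. Mitf +164552 (chr6:97971489-97971719) had a peak in LPS and T0-LPS alone, at 17.2 and 18.8.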
